A study of Mus musculus with 39 samples.

Results

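The early response of control mouse liver to dexamethasone (Dex), a synthetic glucocorticoid, was read from 8 of the 39 samples of a series on the transcription factor E47 and hepatic glucocorticoid action. The members were chosen by their sample labels: 3 livers of mice injected with Dex at 1 mg/kg and killed 1 h later (wildtype_liver_1hDex) and 5 livers of mice given nothing (wildtype_liver_untreated). All 8 mice were C57BL/6 males, per the study's methods aged 10 to 16 weeks, with free access to chow and water, and poly(A) RNA was sequenced with strand information. The Dex mice carried floxed E47 alleles and no Cre (Alb+/+;E47fl/+ in replicate 1, Alb+/+;E47fl/fl in replicates 2 and 3), whereas the untreated mice were E47+/+ littermates of the whole-body E47 knockout line. Treatment therefore coincided with the experiment, the floxed allele, the injection itself and the library numbers, which were lower for all Dex than for any untreated library, and the contribution of each to any difference below cannot be told apart. The groups had no vehicle-injected livers, and the time of day of killing is not given in the sources used here. The study's methods name the RNeasy kit for liver RNA, and the labels repeat it for the injected livers alone.

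Glucocorticoids act through the glucocorticoid receptor (GR, encoded by Nr3c1), which is held in the cytoplasm by HSP90 and its cochaperones and moves to the nucleus when it binds hormone. There it binds palindromic glucocorticoid response elements and recruits coactivators to raise some genes, and it restrains others, among them targets of the inflammatory factors NF-kB and AP-1. In liver the hormone is known for raising enzymes of amino acid breakdown and gluconeogenesis and for setting the phase of the hepatic clock. A harvest soon after injection reads transcripts that respond early, in whole tissue of which hepatocytes are the bulk.

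Depth was 17972116 to 18412005 gene counts per library after Dex and 31714722 to 39357092 in untreated livers. Levels are given below as CPM, the usual count unit relative to library size, here scaled by edgeR's TMM factors, in the order of the replicate numbers. A fold change is Dex over untreated on the log2 scale, with its standard error (SE). Mitochondrial genes took 5.43 to 5.90% of gene counts after Dex and 5.05 to 6.90% in untreated livers. In a multidimensional scaling of the 8 libraries the first dimension (46.4% of the variance) separated Dex from untreated livers. The second dimension (24.1%) separated the untreated livers among themselves, with replicates 1 and 2 (library numbers below 1500) at one end, replicates 4 and 5 at the other and replicate 3 between them (the last 3 numbered above 1500), so values against each untreated library series are given where they matter. Of 13678 genes tested with edgeR's quasi-likelihood test, 1631 passed a Benjamini-Hochberg adjusted p of 0.05 (11.9%), of which 865 were higher after Dex (6.32%) and 766 lower (5.60%). A change of at least 2-fold was met as well by 492 higher (3.60%) and 387 lower genes (2.83%). The 8 livers did not overlap, all Dex values above all untreated values, for 12.0% of genes, and all below for 11.7%. The median log2 fold change over all tested genes was -0.02. The number passing rested on the few Dex livers: it was 556 without Dex replicate 2 and 704 without Dex replicate 3. Against the untreated libraries numbered below 1500 alone, 4776 genes passed, and against those numbered above 1500, 1973. Of the 1631 genes, 1184 passed in the same direction against each series by itself. In bulk tissue, fewer cells of a type and less RNA per cell cannot be told apart.

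Classical GR targets were mostly higher 1 h after Dex. Of 29 listed genes, all tested, 13 rose (6.32% of all genes did), 1 fell and 15 did not pass, and the list's median log2 fold change was 1.25 against -0.02 for all genes. Cdkn1a, which encodes the cell cycle inhibitor p21, was at 148, 197 and 156 CPM after Dex and 1.44, 0.618, 1.44, 1.56 and 1.10 CPM in untreated livers. The groups lay far apart for it, with untreated values near 1 CPM (log2 fold change 7.07, SE 0.26, adjusted p = 1.26e-06). Ddit4, an inhibitor of mTORC1 signalling, was at 168, 113 and 166 CPM after Dex and 17.8, 3.58, 3.20, 3.55 and 4.86 CPM in untreated livers. Untreated replicate 1 stood above its group, yet all Dex values lay above it (log2 fold change 4.51, SE 0.55, adjusted p = 0.00126). Igfbp1, a secreted binder of insulin-like growth factors that insulin represses, was at 439, 552.8 and 943 CPM after Dex and 58.1, 26.9, 6.82, 3.53 and 14.8 CPM in untreated livers. All Dex livers were again higher, and the untreated values ranged over more than 10-fold (log2 fold change 4.88, SE 0.77, adjusted p = 0.00418). Against the untreated libraries below and above 1500 alone, the log2 fold change of Igfbp1 was 3.90 and 6.27.

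Sgk1, a kinase that promotes sodium transport, was at 99.9, 125 and 86.8 CPM after Dex and 13.98, 8.98, 15.3, 8.90 and 12.96 CPM in untreated livers. The groups did not overlap and replicates were close (log2 fold change 3.11, SE 0.21, adjusted p = 4.13e-05). Its RefSeq promoter windows were read because GR binds a known palindrome. The stretch shown lies upstream of one Sgk1 start site, on the plus strand at chr10:21993646-21993770 (build GRCm38.p6, RefSeq), lies inside the annotated Sgk1 gene and touches no exon, and the capitals mark the perfect palindromic element, in which TGTTCT stands on both strands, 3 bases apart.
Sgk1 promoter: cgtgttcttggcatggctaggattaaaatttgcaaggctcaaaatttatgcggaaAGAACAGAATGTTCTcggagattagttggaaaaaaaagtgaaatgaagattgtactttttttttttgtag
The first base of the palindrome lay 189 bases upstream of that start. Only 3 of 32851 promoter windows of the same length (0.00913%), each from 250 bases before to 50 after a start, held it. Fam107a, an actin-associated stress-response gene, had the looser form, GNACA on both strands 3 bases apart, held by 0.475% of windows. Its stretch is on the minus strand at chr14:8309830-8309952, inside the annotated Fam107a gene and outside its exons.
Fam107a promoter: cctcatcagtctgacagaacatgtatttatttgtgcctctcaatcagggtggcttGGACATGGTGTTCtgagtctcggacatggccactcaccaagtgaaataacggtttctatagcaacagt
Fam107a was at 20.6, 62.9 and 64.3 CPM after Dex and 0.766, 0.0325, 0.273, 0.166 and 0.731 CPM in untreated livers. Untreated livers held 24, 1, 11, 7 and 28 counts, so it was close to absent there, and summed counts per sequenced depth were 128 times higher after Dex (95% exact interval 101 to 164, covering counting error only, log2 fold change 6.96, SE 0.60, adjusted p = 0.000174). Fam107a passed the filter on low counts only with its Dex livers. Of 41 named genes that rose at least 2-fold, 34 were in the promoter table and 2 held the loose element, Fam107a and Sgk1. The single site TGTTCT was in promoters of 7 of these 34 genes and of 21.3% of all 27025 genes, and the E-box CANNTG in 27 of 34 and 75% of all. All motifs were sought on both strands, TGTTCT also lies inside the perfect palindrome, and a match is a run of letters, not an occupied site.

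Tsc22d3, the glucocorticoid-induced leucine zipper that restrains inflammatory signalling, was at 371, 320.1 and 285.4 CPM after Dex and 200.2, 64.4, 94.98, 52.4 and 74.4 CPM in untreated livers. Every untreated liver lay below the Dex ones, replicate 1 being the highest of them (log2 fold change 1.74, SE 0.37, adjusted p = 0.0164). Tat, the enzyme that starts tyrosine breakdown, was at 4857, 3736 and 4005 CPM after Dex and 2446, 1257, 1497, 1245 and 1263 CPM in untreated livers. It too did not overlap between groups and had its highest untreated value in replicate 1 (log2 fold change 1.45, SE 0.24, adjusted p = 0.00472). The other risers were Gadd45b (log2 fold change 2.76, adjusted p = 0.00140), a stress protein gene at 2.67 CPM on average after Dex, Hif3a (2.17, adjusted p = 0.0120), Lpin1 (1.76, adjusted p = 0.0140), a phosphatidate phosphatase, Dusp1 (1.69, adjusted p = 0.0263), a phosphatase of MAP kinases, Cited2 (1.25, adjusted p = 0.00406), a partner of p300, Errfi1 (0.73, adjusted p = 0.00786), a feedback inhibitor of the EGF receptor, and Tdo2 (0.73, adjusted p = 0.00991), which starts tryptophan breakdown. The calls of Tsc22d3 and Dusp1 were lost without any 1 of the Dex livers (adjusted p = 0.0510 to 0.0976), those of Hif3a and Lpin1 without Dex replicate 2 or 3 (adjusted p = 0.0515 to 0.0878), and that of Dusp1 also without untreated replicate 1 or 2 (adjusted p = 0.0523 to 0.0527) and against libraries above 1500 alone (adjusted p = 0.0850). Hif3a was low, at 0.698 CPM on average after Dex and 0.151 CPM in untreated livers. It was too low to test after thinning to equal depth and without both untreated livers with high acute phase transcripts.

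**Figure D1:**
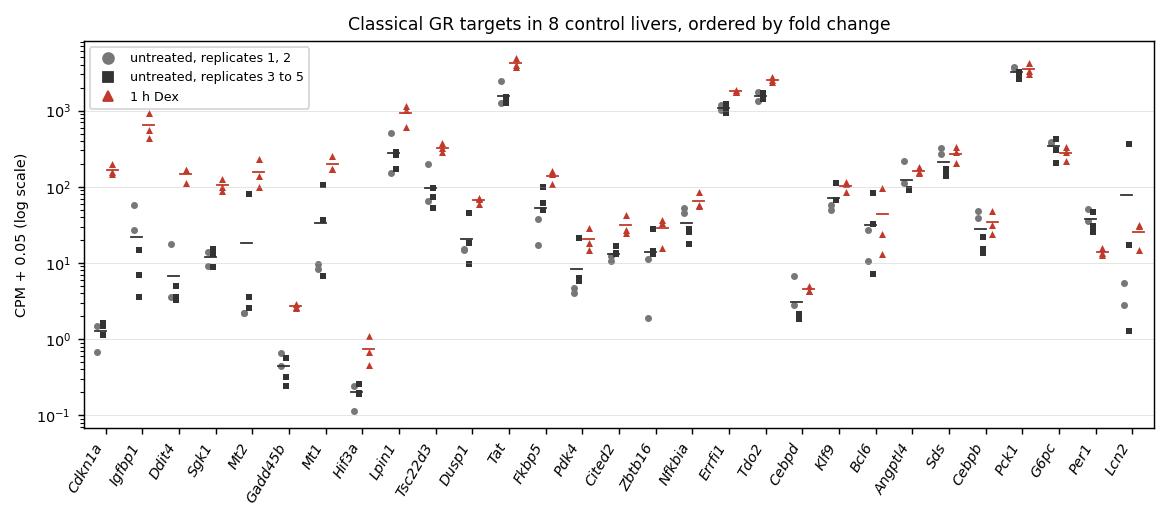
Level of the 29 classical GR targets in each of the 8 control livers, as CPM plus 0.05 on a log scale, genes ordered by fold change from left to right. Triangles are 1 h Dex livers, circles untreated replicates 1 and 2, squares untreated replicates 3 to 5, and short lines the group means. Cdkn1a, Ddit4, Igfbp1 and Sgk1 stand clear of every untreated liver, whereas the Dex and untreated values of Pck1 and G6pc overlap.

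Several targets had higher Dex values without passing. Fkbp5, an HSP90 cochaperone that lowers the receptor's affinity for hormone, was at 109, 163 and 148 CPM after Dex and 37.2, 17.2, 60.4, 49.7 and 100.2 CPM in untreated livers. All Dex livers were above all untreated ones, but adjusted p was 0.0594 (log2 fold change 1.40, SE 0.42). Mt2, a metal-binding metallothionein, was at 99.4, 231 and 140.5 CPM after Dex and 2.14, 2.18, 2.53, 3.48 and 81.05 CPM in untreated livers. Untreated replicate 5 held most of the group's level, and the log2 fold change of 3.10 (SE 1.18, adjusted p = 0.119) became 5.90 without it and 6.08 without untreated replicates 4 and 5, where adjusted p was 4.91e-05. Its neighbour Mt1 was at 2.56 (adjusted p = 0.0696), and at 4.57 with adjusted p = 3.71e-05 without those 2 livers. Those 2 livers were left out after their high acute phase transcripts were seen, so these smaller adjusted p are no independent support. Pdk4, Zbtb16, Klf9 and Nfkbia had log2 fold changes of 1.31, 1.06, 0.54 and 0.97 and adjusted p of 0.124, 0.267, 0.167 and 0.0793. Bcl6, a transcriptional repressor, was scattered in both groups (95.2, 13.01 and 23.7 CPM after Dex and 10.6, 26.99, 82.3, 32.3 and 7.18 CPM in untreated livers, log2 fold change 0.46, adjusted p = 0.744). The remaining members that did not pass were Angptl4 (0.43), Cebpb (0.32), Cebpd (0.56), Sds (0.38), Pck1 (0.14), G6pc (-0.28) and Lcn2 (-1.63). Per1, a clock repressor that carries a glucocorticoid response element, was the single member that fell: it was at 15.6, 12.7 and 13.3 CPM after Dex and 35.98, 50.9, 46.5, 25.4 and 30.1 CPM in untreated livers, every Dex liver below every untreated one (log2 fold change -1.45, SE 0.23, adjusted p = 0.00472).

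Most genes of the receptor's own machinery did not pass. Of 17 listed, 4 rose, 0 fell and 13 did not pass (23.5% passed, against 11.9% of all genes). The median log2 fold change was 0.27. Nr3c1 itself was at 70.7, 71.5 and 81.3 CPM after Dex and 56.5, 65.99, 94.7, 82.2 and 107 CPM in untreated livers. These values overlapped fully (log2 fold change -0.13, SE 0.20, adjusted p = 0.721). Hsp90aa1, the inducible HSP90 chaperone, was at 288.4, 203 and 194 CPM after Dex and 108, 104, 93.4, 156 and 110.9 CPM in untreated livers and rose (log2 fold change 1.00, SE 0.19, adjusted p = 0.00964). Its constitutive partner Hsp90ab1 (0.49, adjusted p = 0.0383), the cochaperone Stip1 (0.72, adjusted p = 0.00589) and the acetyltransferase coactivator Ep300 (1.06, adjusted p = 0.0160) rose as well. The call of Hsp90ab1 was lost without any 1 of the Dex livers (adjusted p = 0.104 to 0.169), without untreated replicate 2, 3, 4 or 5 (adjusted p = 0.0665 to 0.0939) and against libraries below 1500 alone (adjusted p = 0.0538), and that of Ep300 without Dex replicate 2 (adjusted p = 0.0770). Members that did not pass ranged from -0.14 for the mineralocorticoid receptor gene Nr3c2 to 1.40 for Fkbp5 on the log2 scale, among them Hsd11b1 (0.17), which regenerates active hormone in liver, and the coregulators Ncoa1 (0.30), Ncoa2 (0.21), Ncoa3 (0.33), Ncor1 (0.34), Med1 (0.03) and Crebbp (0.11). The cochaperones Fkbp4 and Ptges3 were at 0.27 and 0.12.

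Immediate early genes, which cells switch on within minutes of growth factor or stress signals, rose in part. Of 24 listed, 21 were tested, 6 rose, 1 fell and 14 did not pass (33.3% passed, against 11.9% of all genes). Fosb, Egr2 and Nr4a3 were too low to test. Fos, a subunit of AP-1, was at 26.5, 16.05 and 2.66 CPM after Dex and 0.479, 0.585, 0.521, 0.355 and 0.287 CPM in untreated livers. The groups did not overlap although the Dex livers differed among themselves, replicate 3 being lowest (log2 fold change 5.08, SE 0.59, adjusted p = 0.000999). Egr1, a zinc finger activator, had the same order, at 249, 135 and 51.3 CPM after Dex and 6.83, 3.97, 2.28, 1.89 and 2.69 CPM in untreated livers (log2 fold change 5.37, SE 0.54, adjusted p = 0.000424). Jun (2.01, adjusted p = 0.00406), the other AP-1 subunit, the antiproliferative gene Btg2 (1.92, adjusted p = 0.000524), Maff (2.37, adjusted p = 0.00566), a small MAF factor, and Zfp36 (1.52, adjusted p = 0.0230), whose product degrades cytokine mRNAs, rose too. Socs3, the feedback inhibitor of cytokine receptors, was at 0.999, 1.72 and 1.72 CPM after Dex and 2.90, 9.76, 3.15, 10.4 and 8.85 CPM in untreated livers. It fell in every Dex liver (log2 fold change -2.24, SE 0.51, adjusted p = 0.0210). The calls of Socs3 and Zfp36 were lost without Dex replicate 1 or 2 (adjusted p = 0.0776 to 0.0978), that of Socs3 without Dex replicate 3 (adjusted p = 0.0753), and that of Zfp36 against libraries below 1500 alone (adjusted p = 0.0770).

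Not all fast genes took part. Nr4a1, an orphan nuclear receptor gene, was at 1.76, 1.20 and 1.72 CPM after Dex and 1.15, 9.30, 0.744, 0.521 and 0.862 CPM in untreated livers, and untreated replicate 2 alone set the sign of its log2 fold change (-0.67, adjusted p = 0.681, 0.93 without that liver, and 1.13 with adjusted p = 0.0457 against libraries numbered above 1500). Myc was high in untreated replicates 2 and 4 (4.17, 10.8 and 10.7 CPM after Dex and 3.19, 33.9, 2.90, 24.04 and 4.73 CPM in untreated livers, log2 fold change -0.68, adjusted p = 0.629). Junb (-0.27), Jund (-0.47), Ier2 (0.37), Ier3 (-0.78), Ier5 (0.09), Atf3 (0.10), Nr4a2 (-0.26), Fosl2 (0.34), Klf2 (0.65), Klf4 (0.80), Klf6 (0.33) and Dusp6 (-0.19) did not pass.

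Of 20 inflammatory NF-kB targets listed, 17 were tested, 1 rose, 2 fell and 14 did not pass (17.6% passed, against 11.9% of all genes), and against libraries above 1500 alone 3 rose and 3 fell. The groups did not overlap for 4 higher and 5 lower members, against 12.0% and 11.7% of all genes. The list's median log2 fold change was 0.28. Irf1, an interferon regulatory factor, was at 6.82, 8.25 and 6.43 CPM after Dex and 20.6, 28.1, 21.5, 21.8 and 31.4 CPM in untreated livers. The fall was uniform and the groups did not overlap (log2 fold change -1.78, SE 0.19, adjusted p = 0.000536). Il1b, a macrophage cytokine, fell from a low level, with 1, 0 and 2 counts after Dex and 16, 24, 25, 19 and 28 counts in untreated livers, and summed counts per depth were 10.7 times lower (95% exact interval 3.57 to 52.7, log2 fold change -3.34, SE 0.60, adjusted p = 0.00726). Ptgs2, the inducible cyclooxygenase, had 9, 7 and 16 counts after Dex and 0, 0, 1, 0 and 1 in untreated livers. It was the member that rose, by 55.7 times in summed counts per depth (95% exact interval 14.2 to 480, log2 fold change 5.34, SE 0.66, adjusted p = 0.00129), and both genes stayed under 1 CPM in every liver. Ptgs2 passed the count filter through its Dex livers alone, and it was too low to test against libraries below 1500, after thinning to equal depth and without untreated replicates 4 and 5. Il1b passed the count filter through its untreated livers alone and was too low to test against libraries below 1500.

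Of the acute phase proteins, which hepatocytes secrete in response to cytokines, few passed, and those that did were the fibrinogens. Of 20 listed, 3 rose, 0 fell and 17 did not pass (15% passed, near the 11.9% of all genes). The median log2 fold change was -0.22. Fga, the fibrinogen alpha chain, was at 6253, 7338 and 7989.6 CPM after Dex and 2414, 2612, 2127, 5043 and 4255 CPM in untreated livers. It was higher in all Dex livers, with untreated replicates 4 and 5 nearest to them (log2 fold change 1.13, SE 0.28, adjusted p = 0.0289). The beta and gamma chains Fgb (0.75, adjusted p = 0.0456) and Fgg (0.80, adjusted p = 0.0369) rose as well. All of these calls were lost without any 1 Dex liver (adjusted p = 0.0562 to 0.181), without untreated replicate 1 or 2 (adjusted p = 0.0519 to 0.0840) and against libraries above 1500 alone (adjusted p = 0.0818 to 0.103), and those of Fgb and Fgg without untreated replicate 3 (adjusted p = 0.0542 to 0.0729). Fgb was also lost with offsets for transcript GC content and length (adjusted p = 0.0728).

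The untreated livers were themselves unlike for the strongest acute phase genes. Saa1, a serum amyloid gene, was at 126, 126 and 72.3 CPM after Dex and 48.2, 34.3, 21.1, 503 and 2516 CPM in untreated livers. Untreated replicates 4 and 5 lay above every Dex liver and the other untreated replicates lay below them, so the sign of the difference depended on the comparator (log2 fold change -2.53, adjusted p = 0.289 against all 5, 1.36 with adjusted p = 0.00787 against libraries below 1500, and -3.23 with adjusted p = 0.128 against those above). Lcn2, a siderophore-binding acute phase protein gene that is also a classical GR target, was at 30.98, 30.7 and 14.7 CPM after Dex and 5.33, 2.80, 1.24, 16.96 and 368 CPM in untreated livers. Only untreated replicate 5 lay above every Dex liver, and without it the log2 fold change of -1.63 (adjusted p = 0.543) became 1.93 (2.62 with adjusted p = 0.00343 against libraries below 1500, and -2.34 with adjusted p = 0.323 against those above). Saa2 was at 15.3, 35.7 and 16.3 CPM after Dex and 18.9, 16.9, 6.79, 225 and 1580.1 CPM in untreated livers (log2 fold change -4.04, adjusted p = 0.165). Saa1, Saa2 and the split by replicate were picked once their values were known. Without untreated replicates 4 and 5, 9 of the 20 acute phase genes rose and 0 fell, against 924 and 1029 of 13001 genes. These 2 livers were left out because their acute phase transcripts were high. The rise in that fit therefore follows from the choice and is no independent support.

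**Figure D2:**
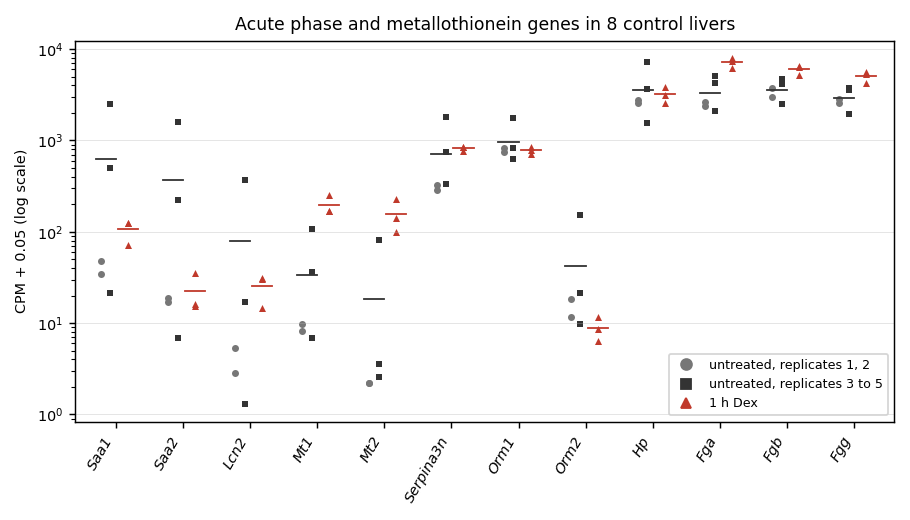
Level of acute phase and metallothionein genes in each of the 8 control livers, as CPM plus 0.05 on a log scale, with symbols as for the GR targets. For Saa1, Saa2 and Lcn2 the untreated livers spread above and below the Dex livers, whereas the fibrinogen genes Fga, Fgb and Fgg lie higher in all Dex livers.

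Of the 26 lists, the circadian clock had the largest share of changed genes. Of 20 clock and clock output genes, all tested, 5 rose, 12 fell and 3 did not pass, against 6.32% and 5.60% of all genes, and the median log2 fold change was -1.54. The hepatic clock runs on a loop in which BMAL1 (encoded by Arntl) pairs with CLOCK or NPAS2 to drive the Per, Cry, Nr1d and Dbp genes, whose products feed back. Of the activators, Arntl, Npas2 and Clock rose. Arntl was at 28.2, 27.6 and 27.3 CPM after Dex and 0.638, 0.618, 1.26, 1.52 and 4.52 CPM in untreated livers, with Dex livers within 1 CPM of each other and far above every untreated liver (log2 fold change 4.00, SE 0.53, adjusted p = 0.00199). Npas2 was at 7.82, 12.2 and 11.3 CPM after Dex and 0.0319, 0.0976, 0.0744, 0.0474 and 0.104 CPM in untreated livers. Untreated livers held 1, 3, 3, 2 and 4 counts, and summed counts per depth were 147 times higher after Dex (95% exact interval 85.3 to 278, log2 fold change 7.11, SE 0.31, adjusted p = 3.27e-06). Npas2 passed the count filter through its Dex livers alone. Clock (1.56, adjusted p = 0.0123), the activator Rora (0.78, adjusted p = 0.0171) and the D-box repressor Nfil3 (2.48, adjusted p = 0.000642) rose with them.

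Dbp, Per3 and Usp2 were among the 12 genes that fell. Dbp, a D-box activator and the usual readout of the clock's phase, was at 0.412, 0.401 and 0.499 CPM after Dex and 180.9, 227, 74.9, 70.3 and 49.6 CPM in untreated livers. The Dex livers held 7, 7 and 9 counts, and summed counts per depth were 256 times lower than in untreated livers (95% exact interval 171 to 404, log2 fold change -8.09, SE 0.75, adjusted p = 0.000248). Per3 was at 1.41, 1.60 and 1.39 CPM after Dex and 41.1, 72.5, 64.8, 43.98 and 37.6 CPM in untreated livers. No Dex value came near an untreated one (log2 fold change -5.14, SE 0.30, adjusted p = 2.36e-05). Usp2, a deubiquitinase under clock control, was at 6.41, 6.53 and 7.04 CPM after Dex and 74.00, 62.7, 77.5, 52.9 and 60.4 CPM in untreated livers, with little scatter in either group (log2 fold change -3.30, SE 0.17, adjusted p = 7.91e-06). Bhlhe41 (-3.99, adjusted p = 0.00111) and Bhlhe40 (-2.79, adjusted p = 0.000193), repressors that bind E-boxes, the nuclear receptor repressors Nr1d1 (-3.02, adjusted p = 0.0108) and Nr1d2 (-1.64, adjusted p = 0.000122), Tef (-2.95, adjusted p = 4.13e-05), a relative of Dbp, Per2 (-2.62, adjusted p = 0.00132), Ciart (-2.03, adjusted p = 0.0149) and Per1, given above, fell as well. Cry1 (0.72, adjusted p = 0.132), Cry2 (0.22, adjusted p = 0.318) and Hlf (-0.54, adjusted p = 0.141) did not pass. Leaving out Dex replicate 2 ended the calls of Nr1d1, Ciart and Rora (adjusted p = 0.0693 to 0.0840), Dex replicate 3 those of Nr1d1, Ciart and Clock (adjusted p = 0.0524 to 0.0767) and Dex replicate 1 that of Rora (adjusted p = 0.0580). The numbers passing, 5 up and 12 down, were the same against the untreated libraries above 1500, with offsets for transcript GC content and length, and without untreated replicates 4 and 5. Against the libraries below 1500 they were 6 up and 12 down. Untreated libraries of both series stood on one side of the Dex livers for all of the 17 genes, and a difference in time of day between the experiments and the hormone cannot be told apart.

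**Figure D3:**
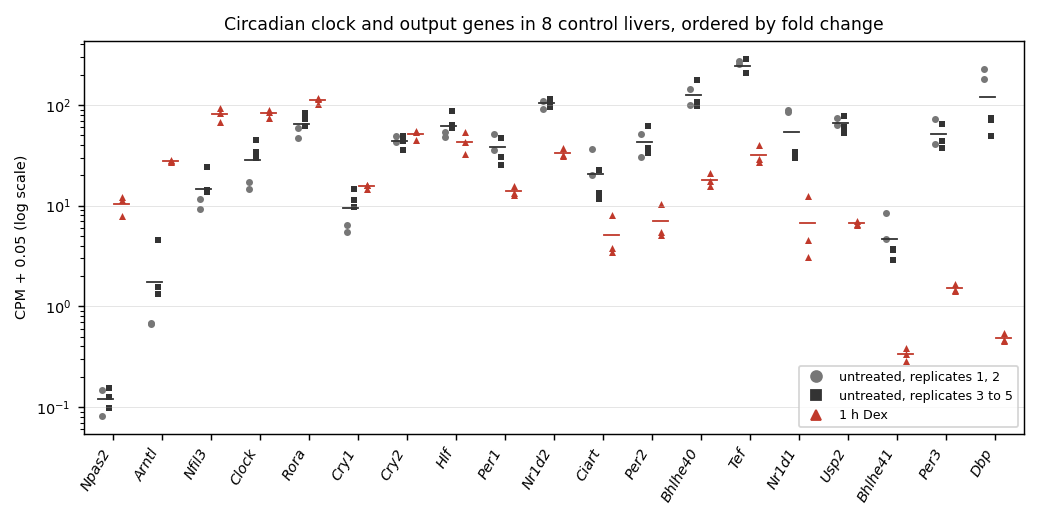
Level of circadian clock and output genes in each of the 8 control livers, as CPM plus 0.05 on a log scale, genes ordered by fold change, with symbols as for the GR targets. Npas2 and Arntl lie higher in all Dex livers, and Dbp, Per3, Bhlhe41 and Usp2 lower in all of them.

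Promoters of 2 falling clock genes are shown because their letters hold the motifs bound by the 2 arms of the loop, D-boxes in Per3 and E-boxes in Ciart. The Per3 stretch is on the minus strand at chr4:151044761-151044915 (GRCm38.p6, RefSeq), upstream of the start, within the annotated neighbour Camta1 and outside any exon, and capitals mark TTATGNAA.
Per3 promoter: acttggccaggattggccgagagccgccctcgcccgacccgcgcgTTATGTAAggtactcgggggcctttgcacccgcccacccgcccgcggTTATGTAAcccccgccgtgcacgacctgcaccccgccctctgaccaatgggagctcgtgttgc
The 2 matches begin 205 and 158 bases before the start. Ciart's stretch, on the minus strand at chr3:95882252-95882399, lies within the annotated gene C920021L13Rik, outside its exons, with CACGTG in capitals.
Ciart promoter: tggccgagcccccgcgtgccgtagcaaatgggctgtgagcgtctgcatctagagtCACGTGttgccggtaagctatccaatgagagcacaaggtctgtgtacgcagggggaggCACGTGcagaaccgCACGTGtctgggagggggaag
Its 3 matches begin between 116 and 44 bases before the start. CACGTG was in 7.15% of all promoter windows and in promoters of 8.09% of all genes, against 4 of the 20 named genes in the table that fell at least 2-fold (Bhlhe41, Ciart, Per1 and Tef) and 10 of the 34 that rose. TTATGNAA was in 3.38% of windows and 3.99% of genes, against 3 of the 20 (Osgin1, Per1 and Per3) and 0 of the 34. The element that ROR and NR1D receptors share, sought as GGTCA after the letters AANTN, was in 0.606% of windows and, among these genes, in Arntl. These 3 motifs were chosen after it was seen which genes changed, were sought on both strands, and every CACGTG is also a CANNTG.

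A minority of the genes of glucose metabolism changed. Of 25 genes of gluconeogenesis and insulin signalling, 5 rose, 2 fell and 18 did not pass (28% passed, against 11.9% of all genes). The median log2 fold change was 0.01. Pck1, the rate-setting gluconeogenic enzyme gene, was at 4279, 3298 and 2994 CPM after Dex and 3789, 3633, 2629, 2719.6 and 3224 CPM in untreated livers, which overlapped (log2 fold change 0.14, SE 0.18, adjusted p = 0.652), and so did G6pc (log2 fold change -0.28, SE 0.23, adjusted p = 0.463). Ppp1r3c, which targets protein phosphatase 1 to glycogen, was at 249, 197 and 129 CPM after Dex and 42.8, 24.1, 42.2, 20.96 and 27.8 CPM in untreated livers. The untreated range ended below every Dex value (log2 fold change 2.60, SE 0.28, adjusted p = 0.000584). Gys2, the liver glycogen synthase, was at 134, 141 and 123 CPM after Dex and 354, 397, 362, 305 and 191 CPM in untreated livers and fell (log2 fold change -1.28, SE 0.22, adjusted p = 0.00634). Besides Igfbp1, Pfkfb3 (1.31, adjusted p = 0.00946), which makes an activator of glycolysis, the coactivator Ppargc1a (0.84, adjusted p = 0.00964) and the transcription factor Foxo3 (0.73, adjusted p = 0.0320) rose, and Crtc2 (-0.53, adjusted p = 0.0139), a CREB coactivator, fell. The calls of Ppargc1a, Foxo3 and Crtc2 were lost without Dex replicate 2 (adjusted p = 0.0674 to 0.147), and these and that of Pfkfb3 without Dex replicate 3 (adjusted p = 0.0525 to 0.165). Foxo3 was also lost without untreated replicate 3, 4 or 5 (adjusted p = 0.0604 to 0.0733), against libraries below 1500 alone (adjusted p = 0.0974) and with GC and length offsets (adjusted p = 0.0785).

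Most genes of insulin signalling did not pass. Insr (-0.01), Irs1 (-0.25), Akt2 (-0.11), Foxo4 (0.01), Creb1 (0.21), Sik1 (-0.17), Gckr (-0.17), Pfkfb1 (-0.08), Slc37a4 (-0.26), Pcx (-0.24) and Fbp1 (-0.47) were among them on the log2 scale, and so were Irs2 (1.16, adjusted p = 0.0954), Foxo1 (0.55, adjusted p = 0.0837) and the glycogen-targeting subunit Ppp1r3b (452, 467 and 388 CPM after Dex and 156, 102, 565, 265 and 309 CPM in untreated livers, log2 fold change 0.64, adjusted p = 0.367). Of 11 glucose and lipid genes that the study names, a list chosen on mice of this series and so no independent evidence of direction, 1 rose, Igfbp1, and 10 did not pass (median 0.19). This was 9.09% of the list, against 11.9% of all genes.

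Of 20 genes of amino acid catabolism and the urea cycle, 4 rose, 2 fell and 14 did not pass (median 0.06), against 6.32% and 5.60% of all genes. The balance turned with the comparator, at 3 up and 6 down (median -0.22) against libraries below 1500 and 5 up and 2 down against those above. Tat and Tdo2, given above, rose, as did the aspartate aminotransferase Got1 (0.99, adjusted p = 0.0377) and Cps1 (0.46, adjusted p = 0.0497), the entry enzyme of the urea cycle, both named after their values were seen. The call of Cps1 was lost without any 1 of the Dex livers (adjusted p = 0.132 to 0.191), without untreated replicate 1, 2, 3 or 4 (adjusted p = 0.0837 to 0.103), against libraries above 1500 alone (adjusted p = 0.0911) and with GC and length offsets (adjusted p = 0.0836). That of Got1 was lost without Dex replicate 2 or 3 (adjusted p = 0.143 for the former), without untreated replicate 2, 3, 4 or 5 (adjusted p = 0.0639 to 0.0822) and against libraries below 1500 alone (adjusted p = 0.115). Prodh (-0.92, adjusted p = 0.0124), which starts proline breakdown, and Nags (-0.62, adjusted p = 0.0176), which makes the activator of the urea cycle, fell. Both falls were lost without Dex replicate 2 or 3 (adjusted p = 0.0615 to 0.0826), and that of Nags with GC and length offsets (adjusted p = 0.312).

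Of 21 genes of fatty acid and triglyceride synthesis, 2 rose, 2 fell and 17 did not pass (median 0.02), so that 19.0% passed, against 11.9% of all genes. The counts were 3 up and 6 down against libraries below 1500 and 3 up and 1 down against those above. Insig2, which holds the SREBP activators in the endoplasmic reticulum, was at 813, 620.1 and 458 CPM after Dex and 80.03, 56.7, 81.6, 107 and 85.1 CPM in untreated livers. No untreated value came near a Dex one (log2 fold change 2.94, SE 0.22, adjusted p = 7.67e-05). Lpin1 was the other riser. Srebf1, the SREBP gene of lipogenesis, was at 168, 122 and 117 CPM after Dex and 339, 388, 532, 182.7 and 199 CPM in untreated livers and fell (log2 fold change -1.28, SE 0.35, adjusted p = 0.0402), as did the desaturase Fads2 (-0.63, adjusted p = 0.0448). Neither fall passed without any 1 of the Dex livers (adjusted p = 0.0683 to 0.185), without untreated replicate 1 or 3 (adjusted p = 0.0501 to 0.0669) or with GC and length offsets (adjusted p = 0.0765 to 0.131). Srebf1 was lost without untreated replicate 2 (adjusted p = 0.0688) and against libraries above 1500 alone (adjusted p = 0.0911), and Fads2 without untreated replicate 4 (adjusted p = 0.0664).

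Of 24 cholesterol synthesis genes 1 rose, the isomerase Idi1 (0.84, adjusted p = 0.00849, lost without Dex replicate 2 or 3, adjusted p = 0.0524 to 0.0620), 0 fell and 23 did not pass (median 0.27). Thus 4.17% passed, against 11.9% of all genes. The list's calls differed with the comparator, at 3 up and 6 down against libraries below 1500 and 11 up and 0 down against those above. Of 20 genes of PPARalpha and the fasting response 0 passed in edgeR's test in either direction (median -0.01). Fabp1, the abundant fatty acid binding protein, was among them (-0.21, adjusted p = 0.656). Of 16 genes of growth hormone to STAT5 signalling, 14 were tested, 2 rose and 1, Socs3, fell (median 0.01). This was 21.4% of those tested, against 11.9% of all genes. Elovl3, a fatty acid elongase known for its daily rhythm in male liver, was at 951, 887.6 and 1019 CPM after Dex and 119.7, 52.5, 40.6, 67.1 and 35.6 CPM in untreated livers. All Dex livers were far above all untreated ones (log2 fold change 3.92, SE 0.36, adjusted p = 0.000232). Stat5b (0.74, adjusted p = 0.00964), the signal transducer itself, rose, and its call was lost without Dex replicate 2 (adjusted p = 0.0687).

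Of 17 genes of the unfolded protein and integrated stress response, 10 rose (6.32% of all genes did), 0 fell and 7 did not pass, and the median log2 fold change was 0.72. Hspa5, the reticulum's main chaperone BiP and named here after its values were seen, was at 2264, 1435 and 1039 CPM after Dex and 719, 682, 539, 556 and 615 CPM in untreated livers. The Dex livers were all higher, replicate 1 most of all (log2 fold change 1.34, SE 0.22, adjusted p = 0.00526). Hyou1 (573, 370.2 and 241 CPM after Dex and 119, 117, 118, 131 and 177 CPM in untreated livers), a cochaperone of BiP, had the same order among the Dex livers (log2 fold change 1.58, SE 0.25, adjusted p = 0.00424), and the disulfide isomerase Pdia4 rose as well (1.12, adjusted p = 0.00459). The 10 risers lay between 0.62 and 1.78 on the log2 scale. The stress transcription factors Atf4 (-0.16), Ddit3 (-0.80) and Xbp1 (-0.01), named after their values were seen, did not pass, and against libraries below 1500 alone 10 members rose and 3 fell. Of 14 cytosolic heat shock genes 3 rose, 0 fell and 11 did not pass (median 0.34). The risers were Hsp90aa1, Hsph1 (1.26, adjusted p = 0.00504), a nucleotide exchange factor for HSP70, and the HSP90 cochaperone Chordc1 (0.80, adjusted p = 0.00751), of which Chordc1 was lost with GC and length offsets (adjusted p = 0.0567). Of the heat shock list 21.4% passed, against 11.9% of all genes.

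Tcf3, the gene that encodes E47 and its splice partner E12, was at 5.82, 6.94 and 5.87 CPM after Dex and 11.97, 16.2, 10.4, 11.5 and 10.7 CPM in untreated livers. All Dex livers were lower (log2 fold change -0.97, SE 0.18, adjusted p = 0.00879), and these are the livers with floxed E47 alleles and no Cre. E proteins such as E47 activate genes at E-boxes, and Id proteins bind them and block this. Of 7 E protein and Id genes 0 rose and 3 fell, Tcf3, Id3 and Id2 (median -0.37). This was 42.9% of the list, against 11.9% of all genes. In its own comparisons the study reports that no E protein or Id gene was regulated by feeding, daily corticosterone changes or glucocorticoid treatment. Id3 was at 3.76, 4.30 and 3.71 CPM after Dex and 18.4, 44.8, 29.9, 33.6 and 41.3 CPM in untreated livers, with no overlap (log2 fold change -3.10, SE 0.29, adjusted p = 0.000302). Id2 was at 28.2, 15.9 and 11.9 CPM after Dex and 32.6, 92.5, 110.4, 80.4 and 92.1 CPM in untreated livers (log2 fold change -2.13, SE 0.41, adjusted p = 0.00964), its call lost without Dex replicate 2 (adjusted p = 0.0601), and it is named here after its values were seen.

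Among the 12 protein-coding genes with the largest rises, those not yet described were Gdf15, Thbs1 and Dhrs9. Gdf15, a stress-induced hormone, was at 54.2, 34.7 and 14.1 CPM after Dex and 5.08, 0.781, 0.818, 0.426 and 1.70 CPM in untreated livers. The rise was largest in Dex replicate 1 and the groups did not overlap (log2 fold change 4.31, SE 0.70, adjusted p = 0.00472). Thbs1, a matrix glycoprotein, was at 3.70, 18.8 and 22.7 CPM after Dex and 0.607, 0.878, 0.794, 0.971 and 0.914 CPM in untreated livers, with Dex replicate 1 lowest of its group (log2 fold change 4.17, SE 0.47, adjusted p = 0.000843). Dhrs9, a retinol dehydrogenase, was at 7.53, 6.65 and 8.26 CPM after Dex and 0.128, 0.260, 0.620, 0.687 and 0.966 CPM in untreated livers (log2 fold change 3.77, SE 0.45, adjusted p = 0.00112).

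The 12 largest falls held Dbp, Per3 and Usp2 from the clock. Rnf186, a ubiquitin ligase, was at 2, 1 and 4 counts after Dex and 88, 446, 219, 290 and 256 in untreated livers, 53.3 times lower in summed counts per depth (95% exact interval 25.8 to 133, log2 fold change -5.72, SE 0.71, adjusted p = 0.00129). Rnf186 passed the count filter through its untreated livers alone. G0s2, an inhibitor of the lipase ATGL, was at 2.29, 1.72 and 2.27 CPM after Dex and 32.3, 14.2, 70.4, 36.3 and 35.8 CPM in untreated livers. Arrdc3, an arrestin domain protein, was at 7.70, 8.88 and 7.26 CPM after Dex and 94.7, 75.7, 196, 121 and 94.4 CPM in untreated livers. Both fell in every Dex liver with no overlap (G0s2 -4.17, adjusted p = 0.00112, Arrdc3 -3.87, adjusted p = 0.000184). Osgin1, an oxidative stress gene, was at 19.7, 14.8 and 12.7 CPM after Dex and 91.7, 305, 130.2, 113 and 266 CPM in untreated livers (log2 fold change -3.52, SE 0.46, adjusted p = 0.00172). Inhbe, the activin E subunit made by hepatocytes, was at 6.64, 3.78 and 2.44 CPM after Dex and 34.8, 25.3, 68.5, 59.7 and 46.3 CPM in untreated livers (log2 fold change -3.45, SE 0.42, adjusted p = 0.00124). Wee1, a kinase that delays mitosis and a known clock output, fell (-3.19, adjusted p = 0.000425), and so did Pcsk4 (-3.40, adjusted p = 0.00272). Acot3, a peroxisomal thioesterase, ranged widely among untreated livers (0.941, 0.516 and 0.388 CPM after Dex and 5.33, 7.41, 44.6, 20.4 and 1.65 CPM in untreated livers, log2 fold change -4.69, SE 1.14, adjusted p = 0.0269), and Cabyr, a calcium-binding protein, was highest in untreated replicate 2 (0.647, 0.630 and 0.776 CPM after Dex and 7.28, 25.4, 4.76, 1.97 and 4.28 CPM in untreated livers, log2 fold change -3.66, SE 0.88, adjusted p = 0.0256). The calls of Acot3 and Cabyr were each lost without any 1 Dex liver (adjusted p = 0.0736 to 0.116), and that of Cabyr with unstranded counts (adjusted p = 0.100).

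The tissue was liver in both groups by its markers. Of all genes, 11.9% passed, the share against which the marker counts below are to be read. The 15 hepatocyte markers, albumin and other secreted proteins among them, summed to 143143 to 154886 CPM after Dex and 96396 to 135075 CPM in untreated livers. Of them 3 rose and 0 fell (median 0.14), namely Tat, Fgb and Cps1. The counts were 5 up and 4 down against libraries below 1500, 2 up and 0 down against those above, and 1 up and 0 down with GC and length offsets. Of 12 Kupffer and macrophage markers 0 passed in edgeR's test (median -0.12, sums of 127 to 313 CPM after Dex and 148 to 402 CPM in untreated livers), with Clec4f at -0.09, adjusted p = 0.895 and Cd5l at -0.46, adjusted p = 0.499. Of 10 sinusoidal endothelial markers 1 rose, the hyaluronan receptor Lyve1 (7.11, 14.6 and 33.1 CPM after Dex and 5.75, 2.60, 4.96, 3.39 and 6.63 CPM in untreated livers, log2 fold change 1.97, SE 0.44, adjusted p = 0.0188). Of 10 stellate and fibroblast markers 2 rose, the collagen genes Col1a1 (2.22, adjusted p = 0.00838) and Col1a2 (1.66, adjusted p = 0.0194), and their summed level was 292.2 to 579.6 CPM after Dex and 223 to 399.7 CPM in untreated livers. Lyve1, Col1a1 and Col1a2 had their lowest Dex value in replicate 1, as Thbs1 did, and their calls were lost without Dex replicate 3 (adjusted p = 0.0501 to 0.115), those of Lyve1 and Col1a2 without Dex replicate 2 (adjusted p = 0.0547 to 0.0943), and that of Col1a2 against libraries below 1500 alone (adjusted p = 0.0626). The part of these cells in other results was not tested.

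Markers of scarcer cells were low. Of 8 cholangiocyte markers 6 were tested and 2 rose, Krt19 (1.29, 2.75 and 2.05 CPM after Dex and 0.830, 0.943, 0.645, 0.758 and 0.627 CPM in untreated livers, 1.42, adjusted p = 0.0131) and Cldn7 (0.705, 1.15 and 0.887 CPM after Dex and 0.383, 0.423, 0.0992, 0.189 and 0.418 CPM in untreated livers, 1.61, adjusted p = 0.0462), which were lost without Dex replicate 2 or 3 (adjusted p = 0.0565 to 0.205), Cldn7 also without Dex replicate 1 (adjusted p = 0.0814), without untreated replicate 1, 2, 3 or 4 (adjusted p = 0.0517 to 0.0801) and against libraries below 1500 alone (adjusted p = 0.0533). Of 10 B cell markers 6 were tested and 0 passed in edgeR's test (median -0.99), with sums of 7.34 to 13.2 CPM after Dex and 7.47 to 26.1 CPM in untreated livers, Ighm at 0.00, adjusted p = 0.999 and Cd22 at -0.97, adjusted p = 0.0944. Of 12 T and NK cell markers 3 were tested and 0 passed, with Cd4 at 0.18, adjusted p = 0.800 and Cd3g at -1.22, adjusted p = 0.293. Of 10 neutrophil markers 3 were tested and 1 rose, S100a8, under 1 CPM in every liver (1.65, adjusted p = 0.0149, lost without Dex replicate 2 at adjusted p = 0.0854 and after thinning to equal depth, adjusted p = 0.0731). Of 8 erythroid markers 5 were tested and 0 passed (median -0.07), with Alas2 at -0.07, adjusted p = 0.831 and Hbb-bs at 0.00, adjusted p = 0.998. Of 10 acinar pancreas markers 2 were tested and 0 passed, Cela1 (0.23, adjusted p = 0.497) and Cela2a (-0.76, adjusted p = 0.432).

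**Figure D4:**
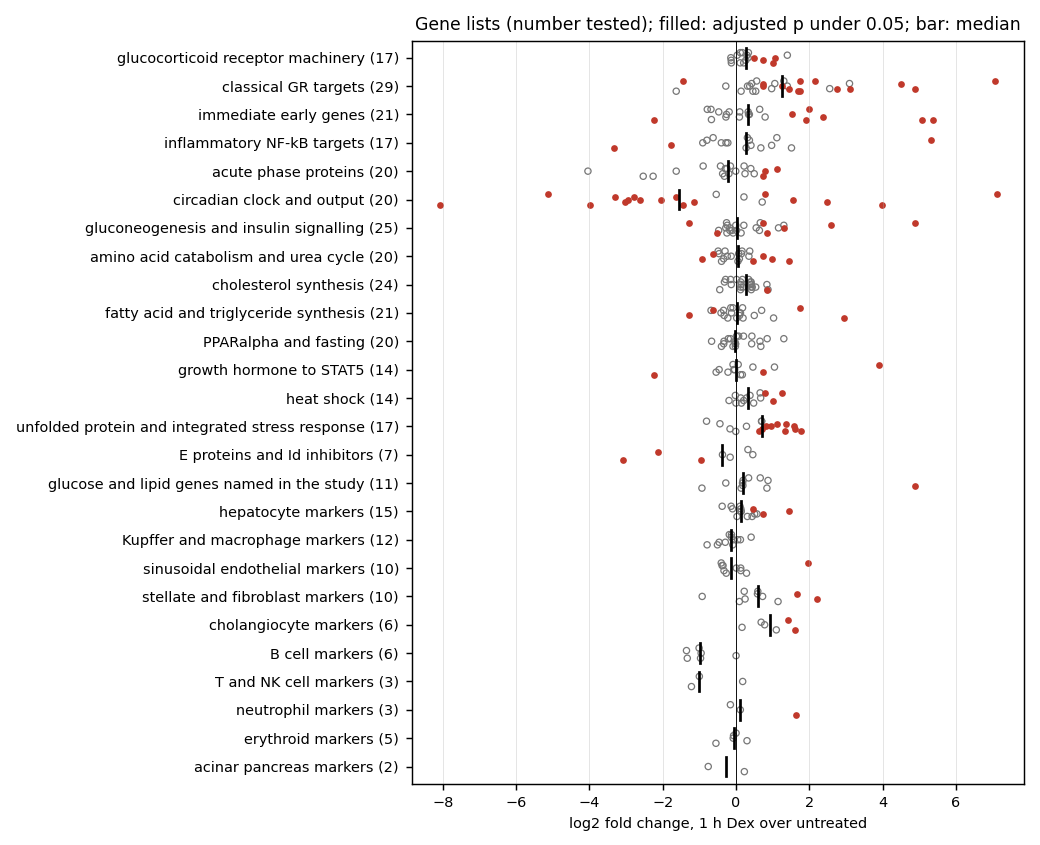
Log2 fold change of 1 h Dex over untreated control livers for each tested member of the 26 gene lists, with the number tested in parentheses. Filled points passed adjusted p 0.05 in edgeR's test, open ones did not, and the vertical bar is the list's median. The clock and GR target lists have the medians furthest from 0, at -1.54 and 1.25, and the median of the PPARalpha genes is -0.01.

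The same contrast in livers without E47 gave a second set of 9 animals: 3 Alb-Cre E47-floxed livers 1 h after the same Dex dose (littermates of the Dex controls) against 6 untreated whole-body E47 knockout livers. They share no sample with the control livers but share both experiments, and the 2 mutant groups differ in where E47 is lost. There 2284 of 14135 genes passed (16.2%), 1246 higher (8.81%) and 1038 lower (7.34%). Genes that passed in the same direction in both were 74.9% of the control list and 53.5% of the mutant list, and 0 passed in opposite directions. Clock genes stood at 5 up and 13 down in mutant livers, and classical GR targets at 18 up and 1 down. Side by side, the log2 fold changes in control and mutant livers were 3.11 and 3.22 for Sgk1, 7.07 and 6.61 for Cdkn1a, -8.09 and -7.05 for Dbp, and 4.00 and 3.68 for Arntl. For Fos and Egr1 they were 5.08 and 3.58, and 5.37 and 3.25.

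The difference of the 1 h effect between mutant and control livers was tested as an interaction over all 17 livers. Only 3 of 14419 genes passed (0.0208%), and 217 had an unadjusted p under 0.05. Among them were the B cell gene Cd79a and the predicted gene Gm9855. Cd79a had 1 to 6 counts in Dex controls, 12 to 23 in untreated controls, 3 to 9 in Dex mutants and 0 to 1 in untreated mutants. E47 is known to be needed for B cell development. The untreated mutants lacked it in every cell and the Dex mutants in hepatocytes, and this difference and the effect of Dex cannot be told apart in the interaction. With the replicate number as a block, 0 genes passed in edgeR's test and 219 had an unadjusted p under 0.05, and in DESeq2 6 passed.

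**Figure D5:**
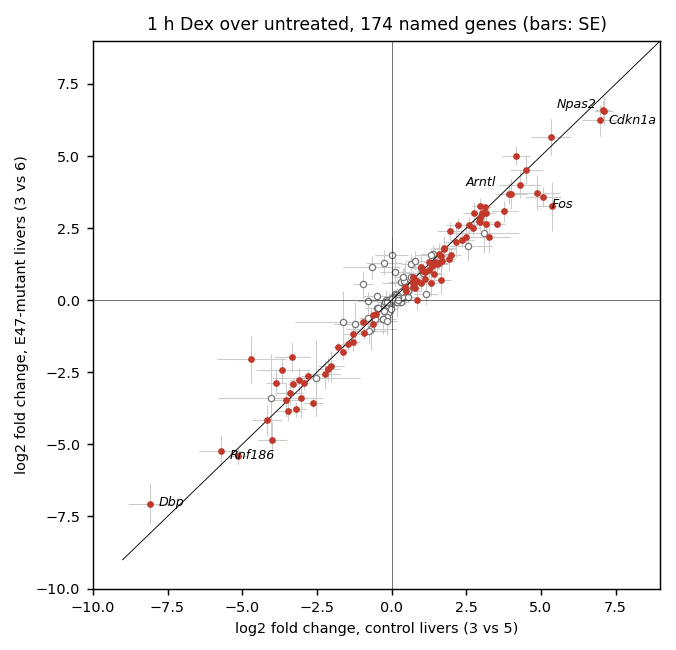
Log2 fold change of 1 h Dex over untreated livers for the named genes, control livers (3 against 5) on the x axis and E47-mutant livers (3 against 6) on the y axis. Bars are SE, filled points passed adjusted p 0.05 in control livers, open ones did not, and the diagonal marks equal change. Dbp and Rnf186 lie at the low end and Npas2 and Cdkn1a at the high end of both axes.

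Fold changes also varied with transcript composition. With genes split into 5 equal bins by GC content of the transcript, the median log2 fold change went from 0.11 in the lowest to -0.27 in the highest bin, and by transcript length from -0.16 in the shortest to 0.12 in the longest. Against the untreated libraries below 1500 the GC trend ran from 0.28 to -0.42, and against those above 1500 from 0.03 to -0.15. The length trend ran from -0.36 to 0.36 against the former and from 0.01 to -0.006 against the latter. With offsets that remove both trends in each library, chosen after seeing the data, 1822 genes passed, and the medians of GR targets and clock genes were 1.28 and -1.45.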

How the data were processed

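Poly(A) RNA of whole liver was sequenced with strand information. Per the labels and file headers the authors aligned reads to mouse build mm10 (Ensembl 38.91) with STAR 2.4.2a and deposited its raw gene counts, 1 library per liver, for 45706 genes. The strand column holding 96.9 to 97.6% of stranded reads was used, and entries naming no gene (26.2 to 32.1% of a library) were left out. From these counts, genes passing edgeR's filterByExpr were tested with edgeR 4.0.16 (R 4.3.3), TMM scaling and the two-sided quasi-likelihood test, Benjamini-Hochberg over all genes tested, threshold 0.05. CPM uses TMM library sizes, and fold changes are on the log2 scale. Exact intervals cover counting error only. p-values rest on the spread between livers and cannot separate treatment from experiment. Only the 2 groups entered the comparison. Alternatives included DESeq2 1.42.0, RLE scaling, no filter, unstranded counts, thinning, single untreated series and leave-one-out. Named genes were the members of 5 lists (receptor machinery, GR targets, immediate early, clock, glucose), 2 to 4 examples of other lists by smallest adjusted p or highest CPM, the 12 protein-coding genes with the largest rise and fall (groups apart, at least 5 CPM) and Tcf3. Members and lists were chosen with earlier results of these data known. Promoter windows came from RefSeq. Libraries of mice treated for weeks (liver, fat, muscle) and the authors' comparison tables, which hold their fold changes and p-values, were not used here. A few members that the counts include are not reported by name here.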

Additional observations from a re-analysis of the deposited data

Results flagged for a closer look

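Among the untreated control livers, 1 value stood apart from the other 4 for 21 of the 174 named genes. There the gap to the nearest liver exceeded 0.71 of the group's range (Dixon's critical value for 5 samples). For normally distributed values chance passes it in about 1 group of 20, but the ratio was taken on CPM without logs. That rate therefore does not apply here, and some of the 174 genes were named after their values were seen. In each of the 21 genes the liver that stood apart was the highest, the end at which a scale without logs spreads values most. It was replicate 1 for 7 genes, with gap ratios of 0.712 for Tsc22d3, 0.798 for Cebpd, 0.886 for Ddit4, 0.790 for Tat, 0.813 for Angptl4, 0.952 for Ighm and 0.727 for Gdf15. It was replicate 5 for 7 genes, with gap ratios of 0.713 for Klf9, 0.983 for Mt2, 0.957 for Lcn2, 0.770 for Arntl, 0.756 for Hyou1, 0.807 for Saa1 and 0.861 for Saa2. It was replicate 2 for 4 genes, with gap ratios of 0.879 for Ptges3, 0.928 for Nr4a1, 0.725 for Tcf3 and 0.773 for Cabyr. It was replicate 4 for 2 genes, with gap ratios of 0.721 for Hsp90aa1 and 0.866 for Pdk4. It was replicate 3 for 1 gene, Dusp1, with a gap ratio of 0.757. What moved these genes in single livers was not tested.

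In the interaction test of edgeR between E47-mutant and control livers, 3 genes passed. The difference, mutant minus control on the log2 scale, was 6.30 for Cd79a and -7.15 for Gm9855 (each at adjusted p = 0.0204). Cd79a had 0 to 1 counts in untreated mutant livers, so its fitted value depends on the prior count and is no bound. Gm9855 had 1, 54 and 26 counts in Dex controls, the 1 being in replicate 1, the Alb+/+;E47fl/+ mouse. It had 0 to 1 in untreated controls, 22 to 56 in Dex mutants and 84 to 165 in untreated mutants. With so few counts in untreated controls, its fitted value is no bound either. The groups differ in their E47 alleles, and this difference and the effect of Dex cannot be told apart for either gene.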

How the results depend on the processing

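The 1631 genes passing became 2478 with DESeq2, 4776 against the untreated libraries below 1500, 2793 in a joint fit of the 4 liver groups and 556 (without Dex replicate 2) to 1763 (without untreated replicate 5) when 1 liver was left out. The cause was not tested. At 2-fold, 879 became 1586 against libraries below 1500 and 423 (without Dex replicate 2, 483 without Dex replicate 3) to 981 with 1 liver left out. In mutant livers 2284 became 919 with a replicate block, and with 1 liver left out 1186 (without Dex mutant replicate 3), 1328 and 1384 (without Dex mutant replicates 1 and 2) to 3155 (without untreated mutant replicate 1). The 3 interaction genes became 6 with DESeq2 and 0 of edgeR's calls with the block (219 at an unadjusted p under 0.05). Across genes, deviations from the group mean correlated at -0.0497, 0.147 and 0.11 between same-numbered Dex and untreated livers. Between differently numbered ones the range was -0.115 to 0.0661. These small values do not settle whether the numbers pair the livers. A replicate block, which can use only the livers with shared numbers, passed 2175 genes. Of the 99 named genes that passed, 61 passed in the same direction under every alternative run and 81 under every one that leaves out no single liver. GC and length offsets and the fit without untreated replicates 4 and 5 were added after seeing the data. With 3 Dex livers at lower depth than the untreated ones, genes of few counts are the least certain.

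The calls of a few named genes were also lost with other settings, with RLE scaling for Cps1 (adjusted p = 0.0528), with no filter for Hsp90ab1, Fgb, Cldn7 and Cps1 (adjusted p = 0.0522 to 0.134), with unstranded counts for Cps1 (adjusted p = 0.0593), with the replicate block for Foxo3, Col1a2, Cldn7 and Got1 (adjusted p = 0.0648 to 0.0957), in the joint fit for Idi1, Fads2, Got1 and Cps1 (adjusted p = 0.0514 to 0.114), after thinning for Cps1 (adjusted p = 0.0575) and without untreated replicates 4 and 5 for Hsp90ab1, Zfp36, Foxo3, Fads2, Cldn7 and Got1 (adjusted p = 0.0516 to 0.0841). Against libraries below and above 1500, the members passing were 20 up and 1 down and 18 up and 1 down for classical GR targets, 8 up and 4 down and 6 up and 2 down for glucose genes, and 10 and 0 acute phase genes, all up. The sign changed under some alternative for 40 of 174 named genes, 0 of which passed in the reported fit. With RLE scaling the log2 fold change was -0.0055 for Ighm. With no filter the log2 fold change was -0.012 for Foxo4, -0.026 for Ighm, -0.020 for Hbb-bs and -0.017 for mt-Nd1. With DESeq2 the log2 fold change was -0.0098 for Ighm. With unstranded counts the log2 fold change was -0.0028 for Foxo4, -0.026 for Ighm, -0.018 for Hbb-bs and -0.0098 for mt-Nd1. With the replicate block the log2 fold change was 0.072 for Nr3c1, -0.11 for Bcl6, 3.15 for Lcn2, -0.13 for Atf3, 0.15 for Myc, 0.060 for Insr, -0.0066 for Ighm, -0.17 for Hbb-bs, 1.68 for Saa1, 0.68 for Saa2, -0.022 for mt-Nd1 and 0.12 for Xbp1. Against libraries below 1500 the log2 fold change was 0.26 for Nr3c1, -0.37 for Cebpb, -0.11 for Cebpd, -0.10 for Pck1, -0.045 for Angptl4, 2.62 for Lcn2, -0.15 for Sds, -0.11 for Ier2, -0.19 for Atf3, 0.0063 for Dusp6, 0.21 for Insr, -0.68 for Ighm, -0.23 for Hbb-bs, 1.36 for Saa1, 0.30 for Saa2 and -0.024 for mt-Nd1. Against libraries above 1500 the log2 fold change was -0.054 for Ncoa2, -0.099 for Med1, 0.43 for Junb, 0.44 for Jund, -0.068 for Ier5, 1.13 for Nr4a1, 0.43 for Nr4a2, -0.023 for Foxo4, 0.051 for Gckr, 0.12 for Fabp1, 0.067 for Atf4 and 0.021 for Xbp1. In the joint fit the log2 fold change was -0.015 for Foxo4, -0.036 for Ighm, -0.033 for Hbb-bs and -0.024 for mt-Nd1. After thinning the log2 fold change was -0.012 for Med1, -0.0027 for Ighm, -0.013 for Hbb-bs and -0.0094 for mt-Nd1. With GC and length offsets the log2 fold change was -0.12 for Med1, -0.021 for Crebbp, 0.25 for Junb, 0.081 for Jund, 0.022 for Pcx, -0.064 for Creb1, 0.037 for Akt2, -0.013 for mt-Nd1, 0.041 for Atf4 and 0.060 for Xbp1. Without untreated replicates 4 and 5 the log2 fold change was 0.028 for Nr3c1, 3.02 for Lcn2, -0.25 for Atf3, -0.00061 for Foxo4, 0.023 for Insr, -0.34 for Ighm, -0.12 for Hbb-bs, 1.63 for Saa1, 0.64 for Saa2, -0.059 for mt-Nd1 and 0.071 for Xbp1. With 1 liver left out it ranged over -0.32 to 0.043 for Nr3c2, -0.041 to 0.095 for Med1, -0.0061 to 0.59 for Cebpb, -0.80 to 1.17 for Bcl6, -0.037 to 0.23 for Pck1, -1.96 to 1.93 for Lcn2, -0.48 to 0.053 for Junb, -0.69 to 0.013 for Jund and -0.00074 to 0.60 for Ier2. The range was -0.32 to 0.32 for Ier5, -0.094 to 0.46 for Atf3, -0.96 to 0.93 for Nr4a1, -0.53 to 0.28 for Nr4a2, -0.62 to 0.22 for Dusp6, -0.023 to 0.054 for Foxo4, -0.45 to 0.042 for Sik1, -0.10 to 0.059 for Insr and -0.22 to 0.053 for Pfkfb1. The range was -0.48 to 0.22 for Clec4f, -0.41 to 0.73 for Ighm, -0.13 to 0.48 for Cd4, -0.21 to 0.0073 for Alas2, -0.30 to 0.26 for Hbb-bs, -0.085 to 0.084 for mt-Nd1 and -0.11 to 0.068 for Xbp1.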

Other observations

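Outside the lists, 4 further genes chosen after their values were seen rose after Dex in both genotypes. Setdb2, a SET domain histone methyltransferase gene, was at 109, 125 and 139.6 CPM after Dex and 10.5, 13.6, 19.9, 19.4 and 15.8 CPM in untreated livers (log2 fold change 2.97, SE 0.20, adjusted p = 4.13e-05), and its log2 fold change in mutant livers was 2.86. Phf11c, a PHD finger gene, was at 51.9, 64.1 and 49.3 CPM after Dex and 8.01, 10.7, 7.99, 4.67 and 4.52 CPM in untreated livers (log2 fold change 2.95, SE 0.26, adjusted p = 0.000221, 3.27 in mutant livers). Tiparp, which encodes an ADP-ribosyltransferase known as a target of the aryl hydrocarbon receptor, was at 42.3, 98.2 and 90.8 CPM after Dex and 4.82, 6.80, 8.06, 6.89 and 6.79 CPM in untreated livers (log2 fold change 3.53, SE 0.26, adjusted p = 6.23e-05, 2.65 in mutant livers). Grk5, a kinase that silences G protein-coupled receptors, was at 12.99, 13.8 and 12.9 CPM after Dex and 3.00, 1.46, 1.36, 1.82 and 2.22 CPM in untreated livers (log2 fold change 2.74, SE 0.24, adjusted p = 0.000218, 2.51 in mutant livers). None of the 4 overlapped between Dex and untreated control livers.

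Transcripts of the mitochondrial genome, also picked after their values were seen, went apart by gene. Of the 13 protein-coding ones, 6 rose and 7 did not pass. mt-Co2 (3.04), mt-Co3 (3.05), mt-Atp6 (3.16), mt-Nd3 (3.17), mt-Nd4l (2.96) and mt-Atp8 (3.25, adjusted p = 0.0195, lost without any 1 of the Dex livers) rose on the log2 scale, whereas mt-Co1 (-0.07, adjusted p = 0.811) and mt-Nd1 (0.01, adjusted p = 0.987) did not pass. The group means of mt-Co2 were 49.5 CPM after Dex and 6.01 CPM in untreated livers, against 23386 and 24555 CPM for mt-Co1. Nuclear transcripts of at least 99% identity cover 98.99 to 99.9% of the length of mt-Co2, mt-Co3, mt-Atp6, mt-Nd3 and mt-Nd4l. STAR's gene counts leave out reads that match more than 1 place, so the values of these 5 genes rest on the remaining reads and are uncertain. The part of this in their rise was not tested. Such nuclear transcripts cover 21.1% of mt-Atp8, which rose, and 63.6% of mt-Nd4 and 31.3% of mt-Co1, which did not pass. Mutant livers gave log2 fold changes of 2.98 for mt-Co2 and 3.03 for mt-Atp6.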
